A study of Mus musculus with 8 samples.

Results

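The integrated stress response and unfolded protein response genes described here are 40 named genes of 39089 in the count tables, taken by their names as known ATF4 targets, serine synthesis enzymes, ER chaperones and stress sensors. They comprise 3 stress sensors, 8 transcription factors, 5 stress outputs, 8 enzymes of amino acid and one-carbon metabolism, 12 chaperones and folding factors of the endoplasmic reticulum (ER) and 4 genes of ER-associated degradation. All 40 passed the filter on low counts that left 13921 genes for testing. Their RNA was measured by bulk RNA-seq in cells from subcutaneous tumors of Myc-CaP, a mouse prostate cancer line driven by a Myc transgene, grown in male FVB mice that were 6 weeks old by the labels. Tumors came from Myc-CaP EV cells (empty vector, here WT) or Myc-CaP Arid1a KO cells, in which a guide RNA had been used to disrupt Arid1a, which encodes a DNA-binding component of SWI/SNF chromatin remodelers. From day 16 and for 2 weeks the mice received vehicle or JSH-23, a compound that blocks nuclear entry of the NF-κB subunit p65, and EpCAM+ CD45- tumor cells were then sorted. Each of the 4 groups (WT or KO, vehicle or JSH-23) held 2 samples. How tumors were assigned to samples, and whether each line was 1 clone, is not given in the sources used here, so the p-values below measure only the spread between these samples, which may be technical, and the genotype cannot be told apart from other differences between the lines.

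Cells answer amino acid shortage, viral RNA, heme lack or protein misfolding in the ER by phosphorylating the initiation factor eIF2, which lowers general protein synthesis while the transcription factor ATF4 is translated more. ATF4 and its partners then induce genes for amino acid uptake and synthesis, one-carbon metabolism and, with CHOP (Ddit3), a late set of feedback and death-linked genes; this is the integrated stress response. The unfolded protein response has 3 ER membrane sensors. PERK (Eif2ak3) is an eIF2 kinase and so feeds ATF4, IRE1 (Ern1) splices Xbp1 mRNA, and ATF6 is cut to release a transcription factor that induces ER chaperones. The genes therefore fall into an ATF4 arm, whose targets act mainly in the cytosol and mitochondria, and an ER arm, whose targets fold proteins and dispose of those that fail. Splicing of Xbp1, cleavage of ATF6 and phosphorylation of eIF2 cannot be read from gene counts.

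The promoter windows of several of these genes carry the short elements through which both arms are known to act. RefSeq promoter windows (GRCm38.p6, 250 bases before the start site and 50 from it) were found for 38 of the 40 genes; Atf6 and Manf had none. The C/EBP-ATF response element, searched as TGATGNAA on both strands, lay in the windows of Asns, Atf3, Chac1, Herpud1, Nupr1, Pck2 and Trib3, 7 genes in all, against 3.97% of 32851 windows genome-wide. The ER stress response element, searched as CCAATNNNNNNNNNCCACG on both strands, lay in those of Calr, Canx, Creld2, Dnajc3, Hsp90b1, Hspa5, Pdia6 and Syvn1, 8 genes in all, against 0.119% of windows. Its shorter relative, ER stress response element II, lay in that of Herpud1, against 0.0365% of windows, and TGACGTGG, the UPR element, in none, against 0.676%. None of the 11 chaperone windows held the first element, and no window of the transcription factors, the stress outputs or the enzymes held the second. The 6 windows below belong to genes that carried the first element and were called in the comparisons that follow. That of Hspa5, added after its values were seen, stands for the chaperones. Each is a stretch of 150 bases, 5′ to 3′ along the gene, with the matched element in capitals (for Herpud1, both the first element and the shorter relative of the second). A match is a sequence of letters and not a shown binding site.
Trib3, chr2:152344039-152344188 (minus strand): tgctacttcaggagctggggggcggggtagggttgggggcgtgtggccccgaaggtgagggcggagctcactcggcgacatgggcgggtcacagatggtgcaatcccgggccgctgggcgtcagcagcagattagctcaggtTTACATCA
Chac1, chr2:119350992-119351141 (plus strand): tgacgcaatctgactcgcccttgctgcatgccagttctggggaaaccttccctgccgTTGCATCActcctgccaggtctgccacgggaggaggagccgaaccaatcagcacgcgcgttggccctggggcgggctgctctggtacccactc
Nupr1, chr7:126625506-126625655 (minus strand): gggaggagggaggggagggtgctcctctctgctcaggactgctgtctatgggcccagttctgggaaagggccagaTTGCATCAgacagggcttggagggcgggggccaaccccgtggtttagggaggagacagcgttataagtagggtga
Atf3, chr1:191183369-191183518 (minus strand): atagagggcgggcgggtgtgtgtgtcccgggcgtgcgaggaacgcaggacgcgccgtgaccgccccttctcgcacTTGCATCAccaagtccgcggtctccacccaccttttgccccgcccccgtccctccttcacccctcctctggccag
Herpud1, chr8:94386248-94386397 (plus strand): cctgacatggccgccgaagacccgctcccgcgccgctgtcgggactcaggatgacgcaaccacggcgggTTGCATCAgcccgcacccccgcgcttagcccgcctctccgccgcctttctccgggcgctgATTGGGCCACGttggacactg
Asns, chr6:7693210-7693359 (minus strand): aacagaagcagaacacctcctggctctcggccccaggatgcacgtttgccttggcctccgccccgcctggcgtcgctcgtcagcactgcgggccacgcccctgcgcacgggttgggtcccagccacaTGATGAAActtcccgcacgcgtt
Hspa5, chr2:34771940-34772089 (plus strand): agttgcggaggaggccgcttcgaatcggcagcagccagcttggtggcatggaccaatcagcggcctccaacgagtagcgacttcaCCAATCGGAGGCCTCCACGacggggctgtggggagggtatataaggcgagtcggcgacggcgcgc
Chac1, Nupr1, Atf3 and Herpud1 carried the same 8 letters, TTGCATCA, at positions -193 (Chac1), -112 (Herpud1) and -110 (Nupr1 and Atf3), counted from the start site as position 1, whereas Trib3 carried TTACATCA just past its start site and Asns carried TGATGAAA close before it. The Hspa5 element began at position -65.

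Total counts ran from 16401581 to 21972231 per sample. Levels are given as CPM (counts of the gene per 1000000 counts of the library), in the order replicate 1, replicate 2, and fold changes come from edgeR with TMM scaling over all 13921 genes, so a fold change can differ slightly from the ratio of CPM. A gene was called when its adjusted p was under 0.05 and its change at least 1.5-fold. Standard errors (SE) were back-calculated from the edgeR test, as the absolute log2 fold change over the square root of its F statistic. Arid1a RNA was at 157.5 and 163.4 CPM in WT vehicle samples and at 106.0 and 108.9 in KO vehicle samples (log2 fold change -0.60, SE 0.036, adjusted p = 1.39e-23), a partial decrease, which the RNA of a gene disrupted by a guide may show or not. Epcam, the sort marker, was listed at no more than 4 counts in any sample and Cdh1 stayed below 1 CPM, so the epithelial label rested on Krt8 alone, which was higher in KO vehicle than in WT vehicle samples (log2 fold change 1.02). The summed CPM of 4 epithelial markers was 52.4 to 61.4 in WT vehicle, 116.7 in KO vehicle, 33.2 to 33.9 in WT JSH-23 and 94.8 to 98.9 in KO JSH-23 samples. That of 8 leukocyte markers, with Cd3e, Cd79a, S100a8 and S100a9 at or under the floor of 3 counts throughout, was 12.2 to 12.4, 3.53 to 4.19, 5.43 to 13.0 and 2.59 to 3.88 in the same order. That of 5 fibroblast markers, mostly Pdgfra, was 61.1 to 65.5, 65.9 to 66.6, 59.8 to 60.8 and 39.0 to 40.6, and that of 4 endothelial markers never exceeded 1.60. These sums moved with the groups, and their part in the results was not tested. The leukocyte sum also differed between the WT JSH-23 replicates, with Lyz2 at 190 and 85 counts and Csf1r at 15 and 1. Fewer cells of a type and less RNA per cell cannot be told apart in bulk samples.

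The first comparison asked what differed between KO and WT tumors without the drug. In vehicle-treated mice, 18 of the 40 genes rose in KO tumors and none fell. Over all tested genes 7.48% rose and 5.16% fell. The ATF4 arm made up 16 of the 18, with 6 of 8 transcription factors, all 5 stress outputs and 5 of 8 metabolic enzymes, whereas none of the 12 ER chaperones was called. The median log2 change was 0.49 over the 40 genes and 0.0032 over all tested genes. By edgeR 4 of the 40 had an adjusted p under 0.05 with a lower level in KO, and 4 had an unadjusted p under 0.05, but all 4 were far under 1.5-fold, and DESeq2 and limma likewise called none lower. Of all tested genes 50.5% had an adjusted p under 0.05 in either direction.

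**Figure D1:**
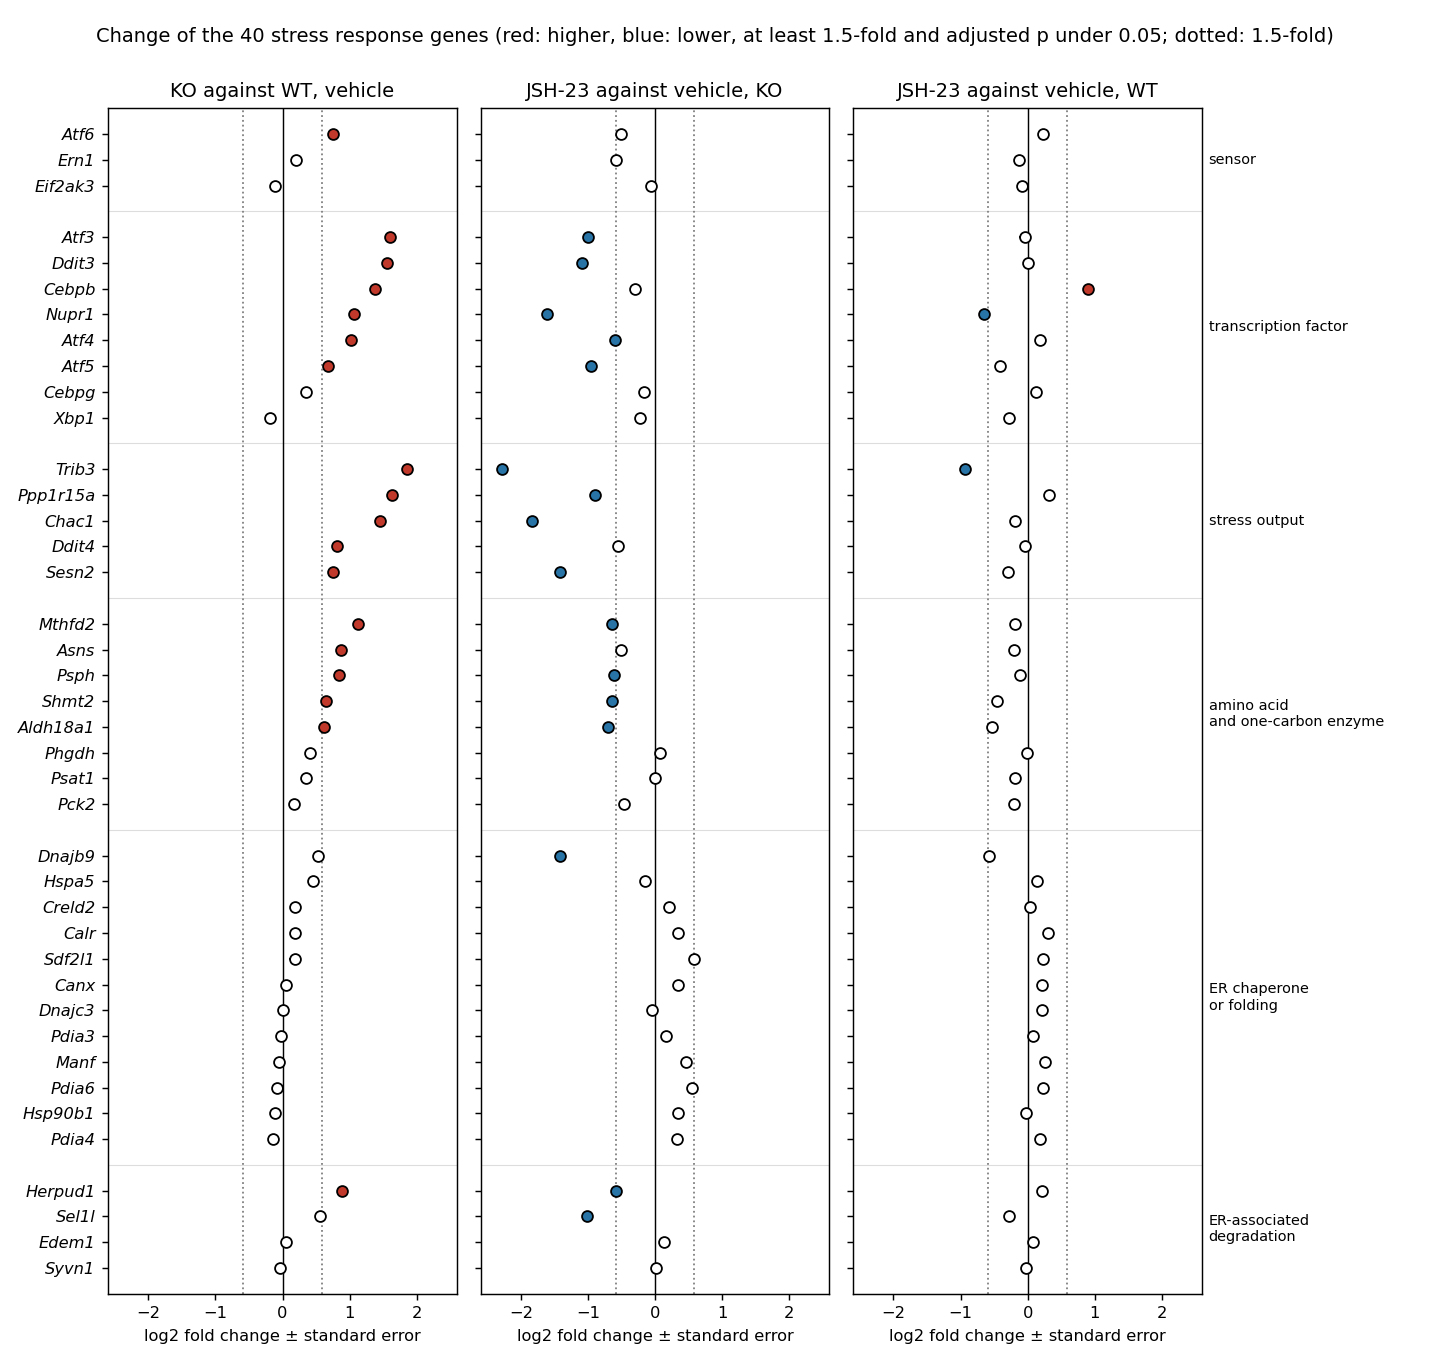
Log2 fold change (horizontal axis, with standard error) of each of the 40 genes, grouped by role, for KO against WT with vehicle and for JSH-23 against vehicle in KO and in WT tumors. Filled points are genes called at least 1.5-fold higher (red) or lower (blue): 18 rose in KO tumors, 16 fell with JSH-23 in KO tumors, and 3 were called with JSH-23 in WT tumors.

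Among the transcription factors, Atf4 itself (chr15:80255184-80257545 in mm10) was at 248.5 and 241.8 CPM in WT vehicle, 511.7 and 502.1 in KO vehicle, 277.1 and 275.2 in WT JSH-23 and 307.3 and 313.2 in KO JSH-23 samples. The KO vehicle samples stood above all 6 others, and the change against WT was 2.03-fold (log2 fold change 1.02, SE 0.023, adjusted p = 1.85e-47). Ddit3, which encodes the pro-apoptotic factor CHOP, was at 33.9 and 38.7 CPM in WT vehicle and at 107.7 and 108.9 in KO vehicle samples, 2.93-fold higher (log2 fold change 1.55, SE 0.054, adjusted p = 1.47e-36). Atf3, a stress-induced repressor and activator of the same family, was at 19.7 and 19.8 CPM in WT vehicle and at 62.1 and 60.1 in KO vehicle samples, the largest change among the 8 factors at 3.04-fold (log2 fold change 1.60, SE 0.071, adjusted p = 5.58e-31). Cebpb, a dimer partner of ATF4, also rose (log2 fold change 1.38), but its WT samples were spread, at 87.9 and 117.9 CPM, against 261.7 and 283.6 in KO. Nupr1, a small stress-induced chromatin protein, rose by a log2 value of 1.06 and Atf5, which serves the mitochondrial stress response, by 0.69. Cebpg, another C/EBP partner of ATF4, stood 0.34 log2 units higher in KO, short of 1.5-fold. Xbp1, the factor of the IRE1 branch, stood on the other side of 0, at 176.4 and 181.5 CPM in WT and 159.7 and 158.8 in KO vehicle samples (log2 fold change -0.19, SE 0.032, adjusted p = 2.77e-07), also short of 1.5-fold.

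The stress outputs rose together. Trib3, a pseudokinase that restrains ATF4 and AKT, was at 45.9 and 44.9 CPM in WT vehicle and at 167.2 and 169.0 in KO vehicle samples, the largest change of the 40 genes at 3.63-fold (log2 fold change 1.86, SE 0.047, adjusted p = 6.57e-45). Ppp1r15a (GADD34), which brings a phosphatase to eIF2 and so ends the response, was at 28.7 and 25.8 CPM in WT and at 84.9 and 87.0 in KO vehicle samples, 3.10-fold higher (log2 fold change 1.63, SE 0.060, adjusted p = 1.94e-35). Chac1, which degrades glutathione, was at 30.0 and 31.7 CPM in WT and at 85.8 and 85.6 in KO vehicle samples, 2.73-fold higher (log2 fold change 1.45, SE 0.062, adjusted p = 8.19e-32). In each of the 3 the WT and KO samples were far apart relative to the gap between replicates. Ddit4 (REDD1) and Sesn2, both inhibitors of mTORC1 signaling, rose by log2 values of 0.82 and 0.75, and Ddit4 was the most abundant of the 40 genes per length, at a mean of 1220 TPM (the same kind of share after division by gene length) over the 8 samples.

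**Figure D2:**
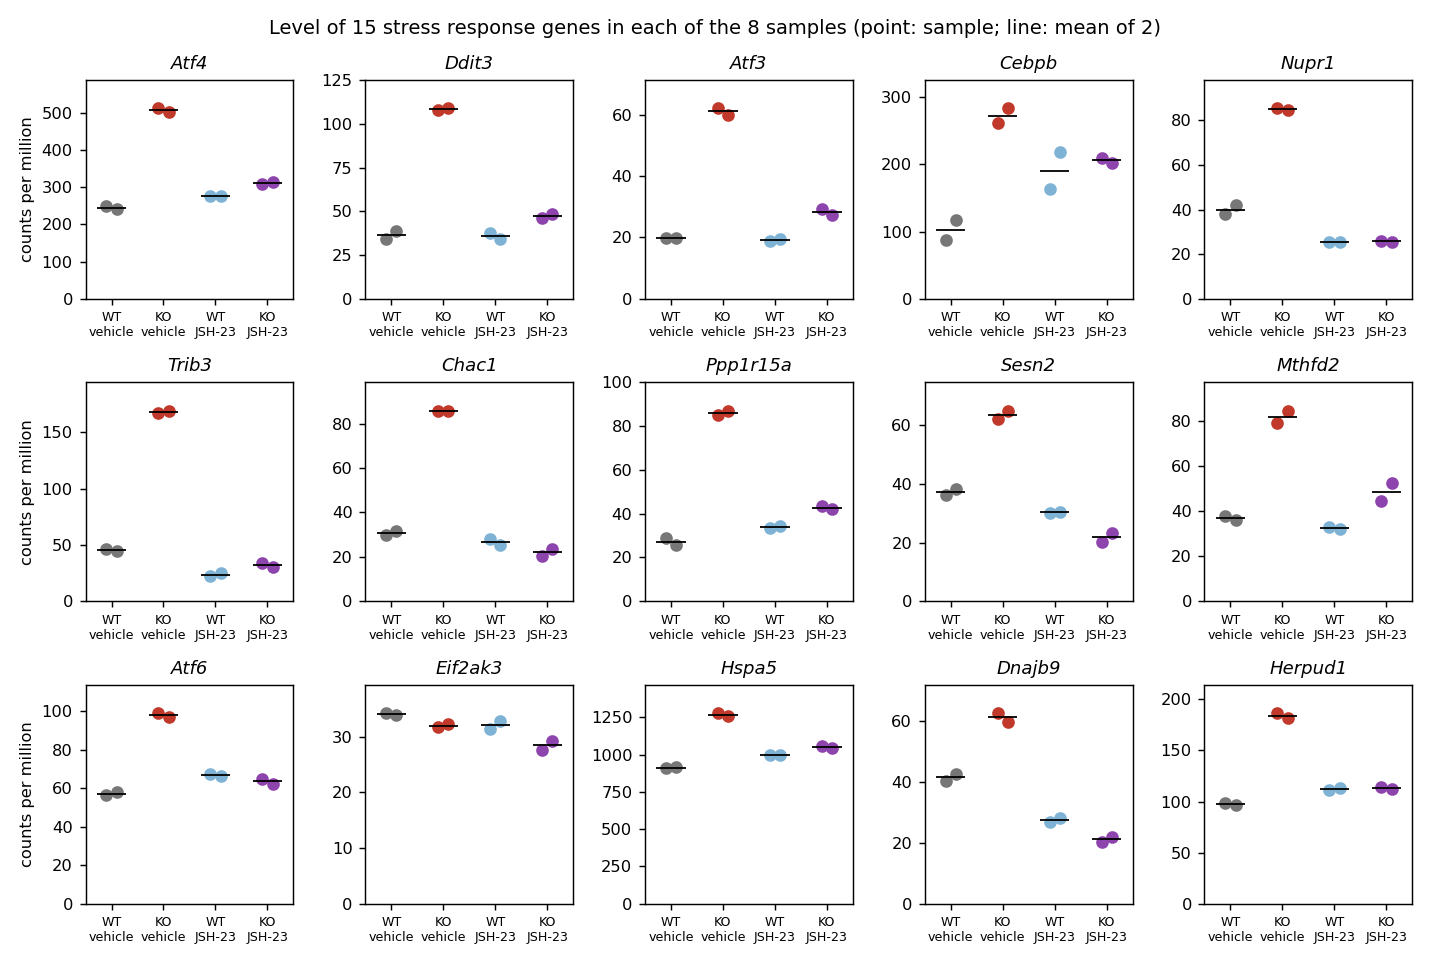
CPM of 15 of the 40 genes in each of the 8 samples, with a line at the mean of each group of 2; each vertical axis is linear and starts at 0. For every gene shown except Eif2ak3 both KO vehicle samples sit above all 6 others, by smaller ratios for Hspa5 and Cebpb. How many of all genes separate in this way was not counted. The 15 were picked for display and do not stand for the 40. By adjusted p alone 30 of the 40 were higher in KO with vehicle and 4 lower. Those 4 (Xbp1, Hsp90b1, Pdia4 and Pdia6) are not shown. Eif2ak3 is highest in WT vehicle samples.

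The metabolic enzymes were divided. Mthfd2, the mitochondrial one-carbon enzyme, rose most, from 37.9 and 36.1 CPM in WT to 79.0 and 84.4 in KO vehicle samples (log2 fold change 1.12, SE 0.061, adjusted p = 5.34e-26). Asns, which makes asparagine, rose by a log2 value of 0.87, Psph, the last step of serine synthesis, by 0.85, Shmt2, which turns serine into glycine in mitochondria, by 0.64, and Aldh18a1, the entry to proline synthesis, by 0.62. The first 2 steps of serine synthesis did not reach 1.5-fold, with log2 fold changes of 0.42 for Phgdh and 0.35 for Psat1, nor did the mitochondrial PEP carboxykinase Pck2 at 0.18. All 8 enzymes lay above 0, with a median of 0.63.

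The 12 chaperones all lay short of 1.5-fold. Hspa5 (BiP), the main ER chaperone and the usual marker of ER stress, was at 909.0 and 915.3 CPM in WT vehicle and at 1278 and 1260 in KO vehicle samples (log2 fold change 0.45, SE 0.016, adjusted p = 5.27e-37). Its groups did not overlap, yet the difference fell short of 1.5-fold. Dnajb9, an ER co-chaperone induced through XBP1, stood 0.53 log2 units higher in KO, and the other 10 chaperones lay between -0.14 (Pdia4) and 0.19 (Creld2), with a median over the 12 of 0.024. Hsp90b1 (GRP94) and Calr, which with Hspa5 were the most abundant chaperones on the TPM scale, and Canx had log2 fold changes of -0.11, 0.19 and 0.046. Summed over the 12 chaperones, the level was 5333 and 5346 TPM in WT vehicle and 5721 and 5705 in KO vehicle samples. The same sum over the 5 stress outputs was 1183 and 1214 TPM against 2293 and 2324. Most of that sum was Ddit4 alone, at 1015 and 1045 TPM in WT vehicle and 1811 and 1834 in KO vehicle samples.

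Of the 3 sensors, Atf6 rose, from 56.5 and 58.0 CPM in WT to 99.0 and 97.1 in KO vehicle samples (log2 fold change 0.75, SE 0.047, adjusted p = 5.55e-23). Ern1 was at 173.5 and 170.0 CPM in WT and at 199.3 and 203.8 in KO vehicle samples (log2 fold change 0.21, SE 0.032, adjusted p = 9.79e-08), short of 1.5-fold. Eif2ak3, the sensor that acts on eIF2, was at 34.2 and 34.0 CPM in WT and at 31.8 and 32.2 in KO vehicle samples, a difference that did not pass the test (log2 fold change -0.12, SE 0.071, adjusted p = 0.168). In ER-associated degradation, Herpud1, whose window above holds elements of both kinds, rose (log2 fold change 0.89, SE 0.035, adjusted p = 8.91e-34). Sel1l stood 0.56 log2 units higher, just under 1.5-fold. Edem1 and Syvn1, at 0.059 and -0.045, did not pass the test.

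The second comparison asked how KO tumors responded to JSH-23, and shares the KO vehicle samples with the first, so the values are given side by side and no relation between the comparisons was tested. With JSH-23, 16 of the 40 genes fell in KO tumors and none rose, against 16.9% of all tested genes that fell and 9.1% that rose. The median log2 change was -0.49 over the 40 genes and -0.020 over all. The genes that fell were 5 of 8 transcription factors, 4 of 5 stress outputs, 4 of 8 enzymes, 2 of 4 degradation genes and 1 of 12 chaperones. Without the fold threshold, edgeR had 11 of the 40 higher at an unadjusted p under 0.05, among them 9 chaperones, and DESeq2 called 1 gene higher, Sdf2l1, at the edge of 1.5-fold. An adjusted p under 0.05 alone was reached by 67.8% of all tested genes in either direction.

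Trib3 fell furthest, to 34.2 and 30.1 CPM in the KO JSH-23 samples, 4.85-fold lower than with vehicle (log2 fold change -2.28, SE 0.048, adjusted p = 3.81e-50). Chac1 fell to 20.5 and 23.6 CPM (log2 fold change -1.84, SE 0.063, adjusted p = 8.54e-38), below the level in any WT sample. Nupr1 was at 85.4 and 84.7 CPM in KO vehicle and at 26.1 and 25.5 in KO JSH-23 samples, 3.05-fold lower (log2 fold change -1.61, SE 0.059, adjusted p = 4.76e-36). These 3 genes carry the C/EBP-ATF element in the windows printed above. The other carriers, Atf3, Herpud1, Asns and Pck2, had smaller decreases, and Asns (-0.51) and Pck2 (-0.47) were short of 1.5-fold. Sesn2 and Dnajb9, given next, had no match to the element in their windows. Whether the element goes with the size of the fall was not tested. Sesn2 went from 62.1 and 64.9 CPM to 20.3 and 23.4 (log2 fold change -1.42, SE 0.066, adjusted p = 4.08e-30), again under all 4 WT samples, which lay between 30.1 and 38.2. Dnajb9 was the only chaperone to fall, from 62.6 and 59.8 CPM to 20.4 and 21.9 (log2 fold change -1.41, SE 0.066, adjusted p = 5.08e-30). Sel1l, which anchors a ubiquitin ligase in the ER membrane for degradation, fell by 1.02 on the log2 scale.

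The central factors fell less. Ddit3 fell to 46.0 and 48.2 CPM (log2 fold change -1.09, SE 0.050, adjusted p = 1.74e-30), Atf3 by 1.00 and Atf5 by 0.96 on the log2 scale. Atf4 fell by 0.59 (SE 0.022, adjusted p = 1.17e-35), only just past 1.5-fold, and its call was lost with only the compared groups in the fit (-0.58), without KO vehicle replicate 1 (-0.58) and without KO JSH-23 replicate 1 (-0.56). Herpud1, at -0.59, was equally close, and its call was lost with DESeq2, without the filter, with only the compared groups in the fit and without any 1 sample except KO vehicle replicate 2. Ppp1r15a fell by 0.90, Aldh18a1 by 0.71, Shmt2 by 0.65, Mthfd2 by 0.64 and Psph by 0.61 on the log2 scale, of which the call of Psph was lost without KO vehicle replicate 1 or KO JSH-23 replicate 1 and that of Mthfd2 without KO vehicle replicate 2 or KO JSH-23 replicate 1. Ddit4 (-0.55), Asns (-0.51) and Pck2 (-0.47) were lower but short of 1.5-fold with TMM scaling, whereas on the TPM scale all 3 were called (-0.79, -0.75 and -0.70) and with library size alone Ddit4 and Asns were. Values for Phgdh (0.069) and Psat1 (-0.0039) stayed close to 0, and Cebpg (-0.17) and Cebpb (-0.30) lay within the threshold.

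Of the 12 chaperones 9 lay above 0 (7 on the TPM scale), unlike the ATF4 arm. Hspa5 was at 1060 and 1045 CPM with JSH-23 (log2 fold change -0.16, SE 0.015, adjusted p = 1.19e-14), but Sdf2l1 (0.58), Pdia6 (0.55), Manf (0.46), Calr (0.35), Canx (0.34), Hsp90b1 (0.34) and Pdia4 (0.32) stood above 0, all short of 1.5-fold. The median over the 12 was 0.33 with TMM scaling, 0.22 with library size alone and 0.093 on the TPM scale, where the median of all genes was -0.20. Their summed TPM, 5743 and 5773 with JSH-23, differed from the 5721 and 5705 with vehicle by little more than the replicates did. Among the sensors, Ern1 (log2 fold change -0.58, SE 0.033, adjusted p = 8.59e-26) and Atf6 (-0.51, SE 0.044, adjusted p = 8.64e-17) were lower but under the threshold, and Eif2ak3 did not pass the test (-0.056, SE 0.070, adjusted p = 0.493). With library size alone or TPM, Ern1 and Atf6 passed it too (-0.69 and -0.62 with library size alone). Xbp1 was at 126.5 and 126.2 CPM (log2 fold change -0.22, SE 0.032, adjusted p = 1.07e-08).

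**Figure D3:**
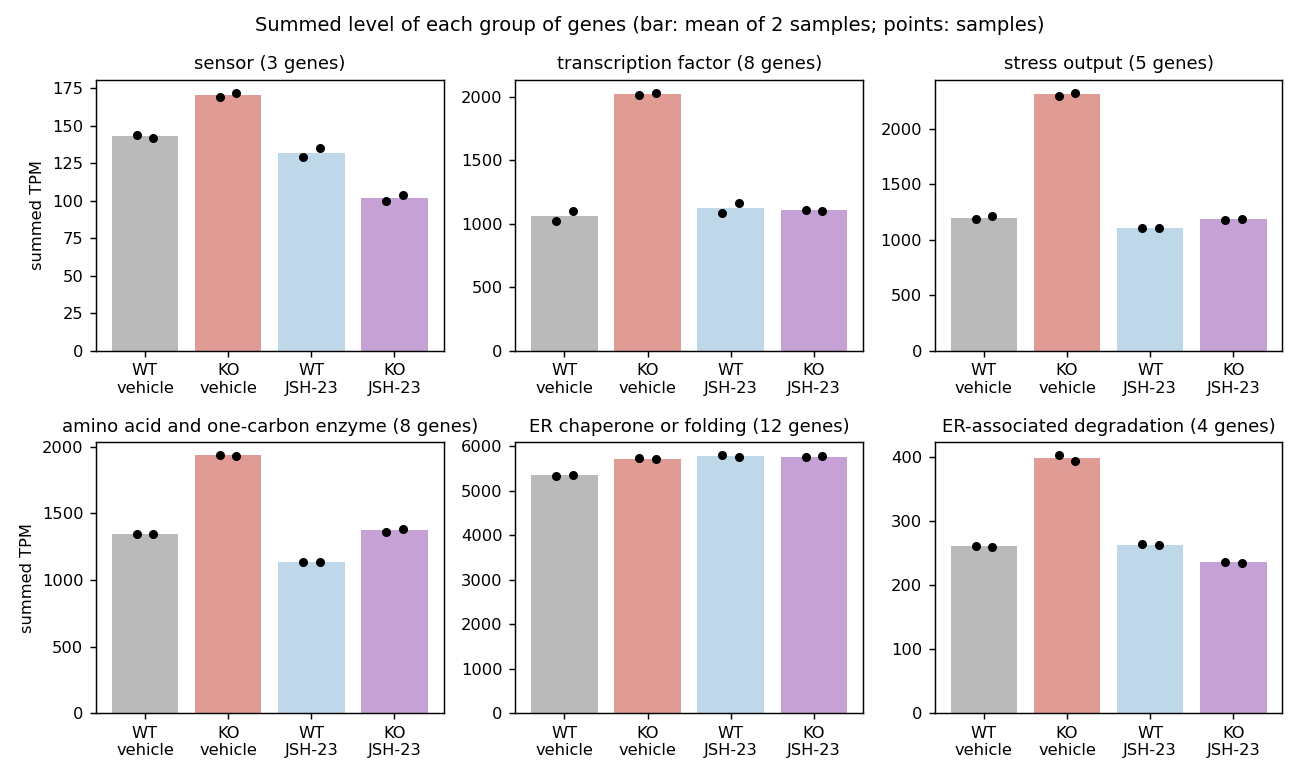
Summed TPM of the genes of each role, with bars from 0 at the mean of the 2 samples of a group and a point for each sample. The stress outputs stand at 2293 and 2324 TPM in KO vehicle samples and between 1103 and 1214 in the other 6, whereas the 12 ER chaperones lie between 5333 and 5790 TPM in all 8. Most of the stress output sum is Ddit4, at 1811 and 1834 TPM in KO vehicle samples and between 970 and 1059 in the other 6. The panel therefore shows little of the other stress outputs.

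In WT tumors the same drug called 3 of the 40 genes, 1 higher and 2 lower, against 5.55% and 10.2% of all tested genes, both above the shares among the 40. The median over the 40 genes was -0.021. Trib3 fell from its vehicle level to 22.6 and 24.8 CPM (log2 fold change -0.93, SE 0.068, adjusted p = 1.60e-19). Nupr1 read 37.9 and 42.1 CPM in vehicle samples against 25.3 and 25.4 after the drug (log2 fold change -0.65, SE 0.071, adjusted p = 2.10e-12), a call lost without WT vehicle replicate 2 (-0.57). Cebpb rose to 162.9 and 219.0 CPM (log2 fold change 0.90, SE 0.064, adjusted p = 4.47e-20), with replicates further apart than in any other of the 40 genes. The hubs changed by less than the threshold. Atf4 had a log2 fold change of 0.18 (SE 0.026), Hspa5 of 0.14 (SE 0.016), Atf6 of 0.23 (SE 0.050), Ern1 of -0.13 (SE 0.034) and Xbp1 of -0.28 (SE 0.032), all past the adjusted p and short of 1.5-fold. Ddit3 (-0.00092, SE 0.067, adjusted p = 0.991) and Eif2ak3 (-0.078, SE 0.072, adjusted p = 0.367) did not pass the test.

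Whether JSH-23 acted differently in the 2 genotypes was tested by the interaction, the log2 change with JSH-23 in KO minus that in WT. It was called below 0 for 13 of the 40 genes and above 0 for none, against 5.76% and 3.3% of all tested genes. At an unadjusted p under 0.05 edgeR had 9 above 0, and neither DESeq2 nor limma called any at 1.5-fold. An adjusted p under 0.05 alone was reached by 38.4% of all tested genes in either direction. The 13 included 5 transcription factors, 4 stress outputs, 2 degradation genes, 1 sensor and 1 chaperone. None of the 8 enzymes was called, which does not stand apart from the 5.76% of all tested genes. Of these 8, 6 lay below 0 and 2 above. The 6 ran from -0.18 (Aldh18a1) to -0.50 (Psph), all past the adjusted p and short of 1.5-fold. With library size alone the count was 16, with the enzyme Psph among those gained (-0.60), and with limma on TPM it was 18, with Psph (-0.68) and Mthfd2 (-0.65). With TMM scaling the largest were Chac1 (-1.65, SE 0.10, adjusted p = 5.22e-23), Trib3 (-1.35, SE 0.088, adjusted p = 1.22e-21), Ppp1r15a (-1.22, SE 0.089, adjusted p = 3.71e-19), Cebpb (-1.19, SE 0.082, adjusted p = 2.33e-20) and Sesn2 (-1.14, SE 0.099, adjusted p = 7.84e-16). Of the hubs, Ddit3 (-1.08, SE 0.084, adjusted p = 4.98e-18), Atf4 (-0.78, SE 0.034, adjusted p = 7.33e-31) and Atf6 (-0.75, SE 0.067, adjusted p = 2.66e-15) were called. Ern1 (-0.45) and Hspa5 (-0.30) were short of 1.5-fold, and Xbp1 (0.062, adjusted p = 0.296) and Eif2ak3 (0.022, adjusted p = 0.891) did not pass the test. For Trib3 and Nupr1 JSH-23 lowered the gene in both genotypes, by more in KO. For Cebpb the interaction came mostly from the WT side, where the gene rose.

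Under JSH-23, KO tumors were called higher than WT for 2 of the 40 genes (5%) and lower for none, against 3.74% and 4.97% of all tested genes, so the share called higher was near that of all genes. By adjusted p alone 25 were higher and 8 lower, and 47.0% of all tested genes passed in either direction. Mthfd2 was at 32.9 and 31.8 CPM in WT JSH-23 and at 44.3 and 52.4 in KO JSH-23 samples (log2 fold change 0.66, SE 0.066, adjusted p = 1.24e-13). Atf3 was at 18.8 and 19.4 CPM in WT and at 29.3 and 27.4 in KO (log2 fold change 0.64, SE 0.079, adjusted p = 1.31e-10). Both calls were lost with library size alone (0.58 and 0.57) and on the TPM scale (0.45 and 0.44), and that of Mthfd2 without KO JSH-23 replicate 2 (0.54). Of the lower genes 8 had an unadjusted p under 0.05, and limma called 1 of them, Sesn2, at a pseudocount of 0.1, while DESeq2 called none.

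Several other genes of the ATF4 arm were higher in KO, short of 1.5-fold. Atf4 stood 0.25 log2 units higher in KO under JSH-23 (SE 0.024, adjusted p = 4.61e-14), Ddit3 0.47 (SE 0.061, adjusted p = 1.22e-09) and Trib3 0.51 (SE 0.070, adjusted p = 3.98e-09). These values shrank to 0.17, 0.39 and 0.44 with library size alone and to 0.054, 0.27 and 0.31 on the TPM scale, where the median of all genes was -0.16 and Atf4 did not pass the test in limma (adjusted p = 0.0524). Asns (0.57), Psat1 (0.54) and Phgdh (0.50) were also higher, and the 8 enzymes had a median of 0.48 (0.28 on the TPM scale). Nupr1 (0.10, adjusted p = 0.265), Atf5 (0.14, adjusted p = 0.107) and Cebpg (0.043, adjusted p = 0.300) did not pass the test, and Pck2 lay at -0.085. Sesn2 (-0.39), Dnajb9 (-0.30), Ern1 (-0.25) and Chac1 (-0.20) stood lower in KO than in WT. Hspa5 (0.15, SE 0.015, adjusted p = 2.82e-13) was just above 0 with TMM scaling and just below it on the TPM scale (-0.040). Xbp1 stood at -0.13 (SE 0.033, adjusted p = 0.000637), and Eif2ak3 (-0.094, adjusted p = 0.292) and Atf6 (0.0039, adjusted p = 0.957) did not pass the test. The 40 genes summed to 9734 and 9785 TPM in KO JSH-23, 9506 and 9560 in WT JSH-23, 9287 and 9404 in WT vehicle and 12532 and 12559 in KO vehicle samples.

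A further 60 genes of the same pathways, listed by role, of which 57 were tested, extended the account. With vehicle 11 of the 57 (19.3%) were higher in KO tumors, against 7.48% of all tested genes, and 3 (5.26%) were lower, about the share of all genes (5.16%). With JSH-23 in KO tumors 10 (17.5%) were lower and 3 (5.26%) higher, against 16.9% and 9.1% of all genes, and in WT tumors 3 (5.26%) were lower, against 10.2%. The shares with the drug were thus near or below those of all genes. Aminoacyl-tRNA synthetases, which load amino acids onto tRNA and are known ATF4 targets, rose in KO tumors for 6 of 12 (50%, against 7.48% of all tested genes), Aars most, from 135.2 and 140.7 CPM to 315.4 and 315.8 (log2 fold change 1.17, SE 0.031, adjusted p = 9.86e-44). Aars was at 132.2 and 142.9 CPM in KO JSH-23 samples, a range that overlaps that of WT vehicle. Wars (0.89) and Cars (0.79) also rose, and with JSH-23 in KO Wars fell by 1.22, Aars by 1.08 and Cars by 0.60 on the log2 scale. These were the only synthetases called there, 3 of 12 (25%), against 16.9% of all tested genes that fell.

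Among 11 further enzymes, Aldh1l2, a mitochondrial folate enzyme, rose in KO tumors (log2 fold change 1.10), as did Cth (0.86), Gpt2 (0.81) and Got1 (0.60), of which all but Got1 fell with JSH-23 in KO. The cytosolic Shmt1 (-0.71) and the Mthfd2 relative Mthfd2l (-0.98) fell in KO tumors, opposite to Shmt2 and Mthfd2. With JSH-23 in KO 4 of the 11 (36.4%) were called lower and 2 (18.2%) higher, against 16.9% and 9.1% of all tested genes. Mthfd2l went up there, from 9.40 and 8.57 CPM with vehicle to 24.7 and 21.5. Of 22 further ER folding and degradation genes tested with vehicle, none rose and 1 fell (4.55%, against 5.16% of all tested genes), Mbtps1 (-0.61), the protease that makes the first cut in ATF6. None of 10 eIF2 kinase, eIF2B and phosphatase genes was called in that comparison, against 7.48% higher and 5.16% lower of all genes. With JSH-23 the eIF2 kinase Eif2ak2 (PKR), also an interferon-induced gene, fell in both genotypes, by 1.78 in KO and by 1.02 in WT on the log2 scale. Gdf15, a hormone secreted under stress, was called higher in KO tumors (1.83, SE 0.72) but on 13 and 12 counts against 3 and 3.

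**Figure D4:**
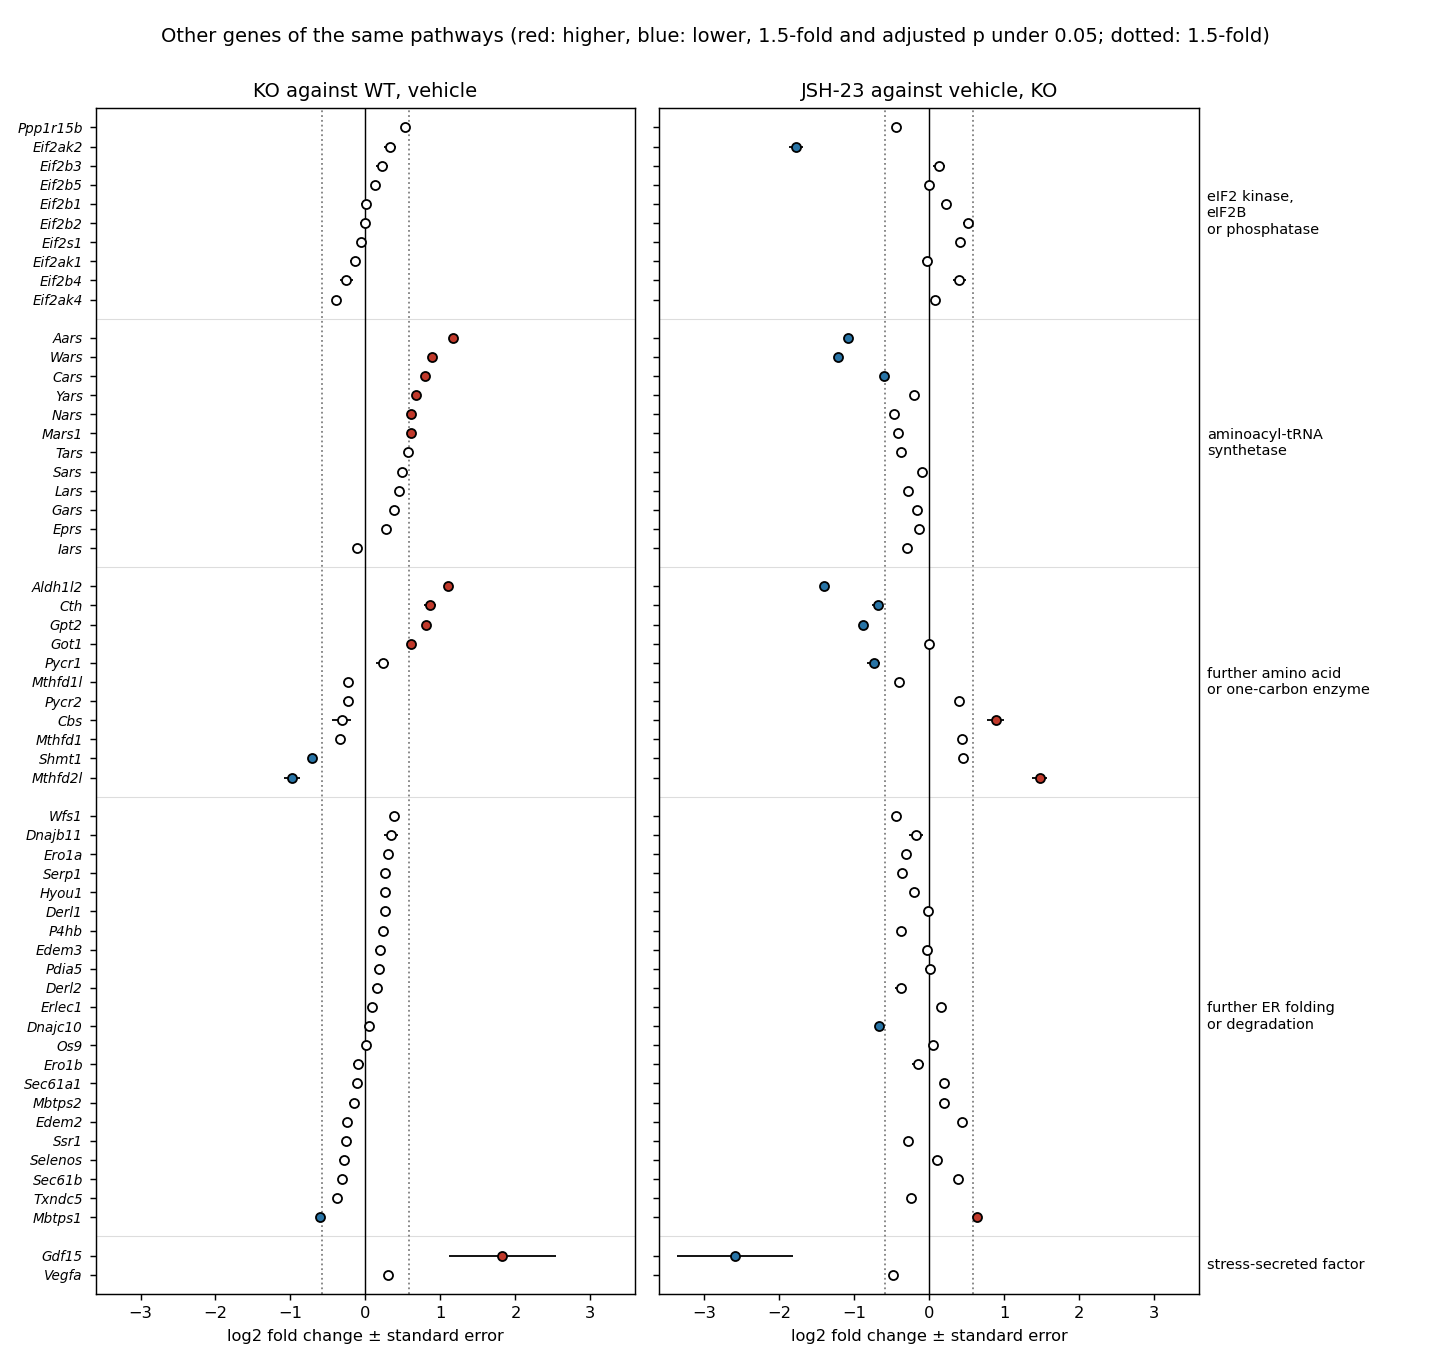
Log2 fold change (horizontal axis, with standard error) of the 57 further pathway genes tested, by list, for KO against WT with vehicle and for JSH-23 against vehicle in KO tumors. The synthetases sit right of 0 on the left panel except Iars, with 6 of 12 called, and the ER folding and degradation genes gather around 0.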

How the data were processed

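RNA from 8 sorted tumor cell samples was sequenced and reads were counted per gene by the authors. The study's methods name TopHat2 with strand-specific best matches on GRCm38/mm10 and HTSeq-count 0.13.5, whereas the submitters' processing notes name HISAT2, HTSeq and DESeq2, and which aligner made the deposited counts was not settled. The deposited TPM values equal counts divided by gene length and scaled to a fixed total, and how the authors made them is not described; they served for levels between genes and as an alternative scale. A second table of TPM was not used here. Groups came from the labelled genotype and treatment.

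Counts were fitted in edgeR 4.0.16 (R 4.3.3; filterByExpr, TMM factors 0.949 to 1.03, quasi-likelihood test, 1 model over the 4 groups, Benjamini-Hochberg over 13921 genes). The common biological coefficient of variation was 1.61%, low for separate animals. Replicates differed by 1.46 to 1.57 times the counting variance, more than sampling noise alone, and each was counted as 1 sample; whether they are technical repeats of 1 RNA source is not given in the sources used here. Alternatives used DESeq2 1.42.0 and limma 3.58.1 on logged TPM, with a pseudocount of 1 or 0.1. Scripts were tested on simulated data. Depth leaves a count of 0 compatible with up to 3 counts (0.137 to 0.183 CPM), and such limits cover counting error only.

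The genes and lists were chosen with earlier results of these data known. Given in full per comparison were the 5 called genes of largest change, together with Atf4, Ddit3, Hspa5, Xbp1, Eif2ak3, Ern1 and Atf6.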

Additional observations from a re-analysis of the deposited data

Results flagged for a closer look

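The effect of JSH-23 differed between the genotypes, by the interaction test in edgeR and at least 1.5-fold, for 13 genes, all with the lower value in KO tumors. On the log2 scale the difference was -1.65 for Chac1, -1.35 for Trib3, -1.22 for Ppp1r15a, -1.19 for Cebpb, -1.14 for Sesn2, -1.08 for Ddit3, -0.96 for Nupr1 and -0.96 for Atf3. It was -0.83 for Dnajb9, -0.80 for Herpud1, -0.78 for Atf4, -0.75 for Atf6 and -0.74 for Sel1l. Groups of 2 samples cannot be searched for single outlying samples.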

How the results depend on the processing

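The 18 genes higher in KO with vehicle and the 13 with an interaction kept their calls in every alternative of test, scaling, filter and samples run, and of the 16 lower with JSH-23 in KO between 12 and 16 did, while the count of genes lower there reached 20 with library size alone and 21 on TPM (gained were Asns, Ddit4, Atf6 and Ern1, and on TPM Pck2). The choice of threshold moved the counts most. With adjusted p alone, 30 genes were higher and 4 lower in KO with vehicle, 25 and 8 with JSH-23, 11 higher and 25 lower with JSH-23 in KO, 16 and 16 in WT, and 8 and 25 for the interaction. The shares of all tested genes that passed in either direction were 50.5%, 47.0%, 67.8%, 55.8% and 38.4% in the same order. At 2-fold, 9 were higher in KO with vehicle, 7 lower with JSH-23 in KO, 6 lower for the interaction, and 0 remained among those higher in KO under JSH-23 or called with JSH-23 in WT. The shares of all tested genes at 2-fold were not counted, so whether these counts stand apart from them is not known. Under JSH-23, 0 genes were higher in KO with library size alone or on either TPM scale, and 1 was lower at a pseudocount of 0.1. With JSH-23 in KO, 1 gene was higher by DESeq2, without the filter and with only the compared groups fitted. Leaving out single samples gave 2 to 4 higher in KO under JSH-23 (4 without WT JSH-23 replicate 1), 0 to 1 higher with JSH-23 in KO and 1 to 3 lower with JSH-23 in WT. The replicate numbers did not pair the samples (correlations of deviations -0.0067 to 0.027), and a replicate block left 18 genes higher in KO with vehicle and changed no count of called genes.

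Scaling shifted the median of all genes with JSH-23 in KO from -0.020 to -0.13 with library size alone and -0.20 with TPM, and the called shares there to 6.06% higher and 20.8% lower and to 2.92% higher and 19.9% lower. Library size alone and TPM gave 2.85% and 6.78%, and 1.21% and 6.39%, for KO against WT under JSH-23, and 1.94% and 8.35%, and 1.13% and 9.57%, for the interaction. Of 906 values of single genes under alternatives, 860 kept direction and call, 11 lost and 11 gained a call, and 24 changed sign, all of them uncalled values near 0. Ddit3 with JSH-23 in WT was at 0.0047 without the filter, at 0.00021 with the replicate block and between -0.087 and 0.098 without single samples. Hspa5 in KO against WT under JSH-23 was at -0.040 with either pseudocount. Atf6 there was at -0.073 with library size alone, -0.00052 without the filter, -0.18 and -0.18 with TPM, and between -0.0097 and 0.039 without single samples. For the interaction, Xbp1 was at -0.041 with library size alone and at -0.13 and -0.13 with TPM, and Eif2ak3 at -0.081, -0.17 and -0.18, and between -0.0097 and 0.079 without single samples. Eif2ak3 with JSH-23 in KO lay between -0.081 and 0.0078 without single samples. The cause was not tested. With 2 samples a group, a left-out sample leaves a lone one, assumed to vary like the others.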
